A study of Homo sapiens with 6 samples.

Results

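The SUMO-2/3 peaks described here are those that lie beside the large unsequenced gaps of the human chromosomes, most of which stand where the centromeres are. They were selected by position from the deposited peak lists of HL-60, a human cell line derived from an acute myeloid leukaemia. A peak was taken when its midpoint lay within 1 Mb of a run of at least 1 Mb of undetermined (N) bases in hg19, on chromosomes 1 to 22. This gave 1691 peaks of 149899 in all 3 lists. The mock list contributed 415 peaks of 44265, the cytosine arabinoside (Ara-C) list 768 of 72279 and the daunorubicin (DNR) list 508 of 33355. The comparison set, called the flank, was the peaks from 2 to 6 Mb away from the same gaps.

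Mock-treated cells received H2O, and the others received 2 µM Ara-C, a nucleoside analogue, or 1 µM DNR, an anthracycline, each for 2 h. Chromatin was immunoprecipitated with 2 µg of a SUMO-2/3 antibody, and 3 biological replicates were pooled into 1 library per condition. The 3 input samples of the series were not analysed here. With 1 library per condition no difference has a replicate check, no test between conditions was possible, and library depth is unknown from the lists. All intervals are 95% intervals and cover counting error only, and neighbouring peaks are not independent of each other.

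SUMO-1, SUMO-2 and SUMO-3 are small proteins that are attached to lysines of other proteins, and chromatin proteins are among their main substrates. Centromeres form on alpha satellite DNA, a tandem repeat of a monomer about as long as one nucleosome repeat, part of which carries the box bound by the centromere protein CENP-B. Around it lies pericentromeric heterochromatin, which on several chromosomes holds satellites built from the pentamer GGAAT. SUMOylation is known from work in many organisms to act in heterochromatin and at centromeres. In hg19 most of this DNA is missing and stands as gaps, and only its edges are sequenced.

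The rule found 24 gaps of 1.05 to 21.05 Mb on the 22 chromosomes, 15 of them between 3 and 3.2 Mb long. The longest N run below the threshold measured 0.486 Mb, so no run lay between 0.486 and 1.05 Mb. On 5 chromosomes a gap reached from the chromosome end, and on the other 17 every gap had sequence on both sides. Chromosome 21 was among the 5 and also had a gap with sequence on both sides. The sequence within 1 Mb of a gap amounted to 38.8 Mb, 1.45% of the sequenced autosomal bases, and the flank to 153 Mb. Satellite sequence marked this zone in the assembly itself. Of 3873 windows of 1 kb taken every 10 kb beside the gaps, 1.81% held at least 2 GGAAT units in tandem, against 0.319% of the flank windows.

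Merging peaks that share bases, 34 merged regions beside the gaps held peaks of all 3 lists. In 20 of them some base was covered in every list, and in the other 14 the lists were joined only through a peak overlapping its neighbours. The sequence of the 6 with the largest summed peak width is shown because it says what kind of DNA lay where the lists met. Each line gives the central 300 bases of a region in hg19 on the plus strand, read from the GRCh37 assembly. All 3 lists had peaks on the printed stretch except on chromosome 2, where no Ara-C peak reached it. Capitals mark the pentamer GGAAT, its reverse complement ATTCC and the CENP-B box core TTCGNNNNANNCGGG on either strand.
Chromosome 18, widest merged region, chr18:18519451-18519750: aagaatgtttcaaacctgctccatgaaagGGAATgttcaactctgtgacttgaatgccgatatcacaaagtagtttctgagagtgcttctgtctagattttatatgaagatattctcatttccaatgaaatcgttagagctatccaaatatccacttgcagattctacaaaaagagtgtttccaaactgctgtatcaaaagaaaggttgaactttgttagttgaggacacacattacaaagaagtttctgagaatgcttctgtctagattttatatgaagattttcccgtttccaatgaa
Chromosome 7 region, chr7:61969076-61969375: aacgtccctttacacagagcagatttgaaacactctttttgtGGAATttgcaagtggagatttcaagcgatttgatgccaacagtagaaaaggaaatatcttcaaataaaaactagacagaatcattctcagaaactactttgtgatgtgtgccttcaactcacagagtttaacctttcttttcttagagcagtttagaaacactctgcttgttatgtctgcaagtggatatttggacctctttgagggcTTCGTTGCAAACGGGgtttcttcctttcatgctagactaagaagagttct
Chromosome 16 region, chr16:46427476-46427775: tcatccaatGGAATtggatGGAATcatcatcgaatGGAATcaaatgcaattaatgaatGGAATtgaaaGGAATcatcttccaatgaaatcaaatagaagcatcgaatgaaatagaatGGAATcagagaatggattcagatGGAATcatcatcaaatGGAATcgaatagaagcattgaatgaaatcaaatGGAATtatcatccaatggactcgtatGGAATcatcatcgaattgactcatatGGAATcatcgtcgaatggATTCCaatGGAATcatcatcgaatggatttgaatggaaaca
Chromosome 21 region, chr21:9827176-9827475: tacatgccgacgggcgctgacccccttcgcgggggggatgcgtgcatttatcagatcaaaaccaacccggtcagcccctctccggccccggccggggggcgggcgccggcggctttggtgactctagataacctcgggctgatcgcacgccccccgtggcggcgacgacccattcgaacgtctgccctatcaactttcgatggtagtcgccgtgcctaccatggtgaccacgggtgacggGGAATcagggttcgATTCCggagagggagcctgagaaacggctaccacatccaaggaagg
Chromosome 18, neighbouring region, chr18:18517201-18517500: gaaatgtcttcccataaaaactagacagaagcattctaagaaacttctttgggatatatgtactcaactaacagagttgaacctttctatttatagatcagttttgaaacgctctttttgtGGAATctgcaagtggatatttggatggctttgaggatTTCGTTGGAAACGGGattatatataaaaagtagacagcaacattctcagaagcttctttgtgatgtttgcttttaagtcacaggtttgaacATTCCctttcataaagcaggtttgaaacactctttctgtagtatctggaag
Chromosome 2 region, chr2:89867776-89868075: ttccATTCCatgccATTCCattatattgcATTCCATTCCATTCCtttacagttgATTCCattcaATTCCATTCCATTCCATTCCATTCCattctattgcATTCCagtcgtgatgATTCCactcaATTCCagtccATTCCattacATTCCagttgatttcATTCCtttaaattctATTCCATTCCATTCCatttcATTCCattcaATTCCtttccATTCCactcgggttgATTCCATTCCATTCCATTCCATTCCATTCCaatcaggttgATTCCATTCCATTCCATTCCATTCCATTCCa

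The widest of these regions, chr18:18518751-18520450, was covered by 1 mock peak of 400 bp, by 2 Ara-C peaks with 1400 bp in all and by 3 DNR peaks with 1250 bp in all. The widest single peaks were of 400, 700 and 650 bp, and 150 bp were covered in every list. It lay 8.7 kb after the gap and was intergenic. Its 1 kb window matched itself at 80.6% of bases when shifted by about the length of an alpha satellite monomer. A neighbour 6.45 kb from the gap, chr18:18516901-18517800, was covered by 200 bp (mock), 550 bp (Ara-C) and 600 bp (DNR) and held 2 CENP-B box cores. The chromosome 7 region, chr7:61968801-61969650, had 350 bp in 2 mock peaks and 850 bp in 1 peak under each drug, also held 2 CENP-B box cores, and stood 915 kb from the gap. In these 3 regions the mock list covered the fewest bases.

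The chromosome 16 region, chr16:46427251-46428000, held 34 GGAAT pentamers counted on both strands and was covered by 500, 550 and 600 bp. The chromosome 2 region, chr2:89867401-89868450, held 123 pentamers in 1050 bp. It held 1 mock peak of 300 bp, 1 Ara-C peak of 150 bp and 2 DNR peaks with 850 bp in all, the wider of 550 bp. The mock and Ara-C peaks shared no base there and were joined through the DNR peaks. The region tied at 1300 bp of summed width with 2 further regions and was printed as the first in chromosome order. The chromosome 21 region, chr21:9826951-9827700, was of another kind. It was GC-rich (56.9%), showed no monomer-length repeat (26.7% identity), and its printed stretch is recognisable as small-subunit ribosomal RNA gene sequence. MIR3687 was annotated 688 bp away. Its mock, Ara-C and DNR peaks measured 550, 350 and 750 bp.

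Peak density rose steeply at the very edge of the gaps in all 3 lists. In the first 10 kb there were 32 mock peaks (74.42 per sequenced Mb), 72 Ara-C peaks (167.4) and 71 DNR peaks (165.1). From 10 to 50 kb the densities were 29.07, 55.23 and 45.35 per Mb. From 0.5 to 1 Mb they were 8.31, 16.4 and 8.95 per Mb, and in the flank 15.7, 24.3 and 10.5. The mock and Ara-C densities therefore passed from above the flank level beside the gap to below it further out, while the DNR density came down to slightly below its flank level. At the limit of the selection rule, the last 100 kb inside held 7.39, 14 and 8.18 peaks per Mb and the first 100 kb outside held 10.1, 16.5 and 8.51.

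**Figure D1:**
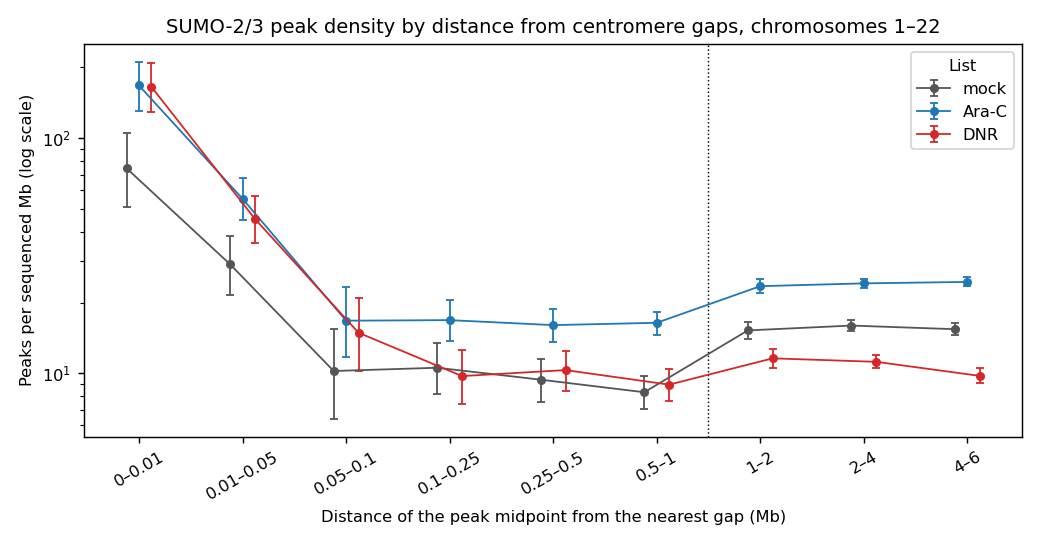
Peaks per sequenced Mb (log scale) in classes of distance from the nearest gap (Mb), for the mock, Ara-C and DNR lists, with exact Poisson intervals. The dotted line marks the 1 Mb limit. In the first 10 kb the 3 lists reach 74.42, 167.4 and 165.1 peaks per Mb.

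Over the whole zone, near-gap density was below the flank in mock and Ara-C and above it under DNR. Mock had 10.7 peaks per Mb beside the gaps and a near-gap to flank ratio of 0.682 (exact conditional interval 0.613 to 0.757). Ara-C had 19.8 per Mb and a ratio of 0.814 (0.753 to 0.88). DNR had 13.1 per Mb and a ratio of 1.25 (1.13 to 1.38). Near-gap peaks made up 0.945% of the autosomal mock peaks, 1.07% of those under Ara-C and 1.53% under DNR. The pooled order of the lists did not hold for the median chromosome, whose ratio was 0.588 in mock, 0.866 with Ara-C and 0.725 with DNR. The ratio was above 1 on 7, 8 and 10 of the 22 chromosomes. Without the 50 kb next to each gap the pooled DNR ratio was 0.935, and without chromosomes 4, 10 and 21 it was 0.834. With the sequenced bases replaced by those whose 50-mer occurs once in hg19, the ratios were 0.846, 1.01 and 1.55.

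Between the mock and DNR lists, near-gap and flank peak numbers moved in opposite directions, though the near-gap rise depended on the setting. The DNR list held 1.22 times as many near-gap peaks as mock (1.07 to 1.4) but 0.668 times as many flank peaks (0.627 to 0.712) and 0.754 times as many over all autosomes. The near-gap ratio divided by the flank ratio was 1.83 (1.59 to 2.12). Under Ara-C peaks were more numerous in both places, 1.85 times mock beside the gaps (1.64 to 2.09) and 1.55 times in the flank, a ratio of ratios of 1.19 (1.05 to 1.36). Both drug lists were set against the same mock list. With the zone widened to 2 Mb, the DNR to mock ratio was 0.955 (0.873 to 1.05). Counting error did not separate the ratio from equality without chromosome 21 (1.15, 0.998 to 1.33) or without the 50 kb next to each gap (1.08, 0.926 to 1.26). The same held for gaps with sequence on both sides (1.14, 0.984 to 1.31). Within 0.5 Mb the ratio was 1.31 (1.11 to 1.55), and for peaks of at least 200 bp it was 1.59 (1.33 to 1.9).

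The DNR list exceeded mock mainly close to the gap. Within 0.1 Mb there were 104 mock peaks and 181 DNR peaks, a ratio of 1.74 (1.36 to 2.24). From 0.1 to 1 Mb there were 311 and 327, a ratio of 1.05 (0.897 to 1.23), which counting error does not separate from equality but which was above the flank ratio. Ara-C peaks numbered 203 and 565 in these bands, 1.95 and 1.82 times mock, so the Ara-C excess was of similar size at both distances. Without chromosomes 4, 10 and 21 the DNR list held 301 near-gap peaks against 286 in mock. That ratio was 1.05 (0.892 to 1.24), beside 0.655 in the flank of the same chromosomes.

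Chromosomes differed widely. Over the summed lists the near-gap to flank ratio was highest on chromosomes 10 (3.45), 4 (2.97) and 21 (2.51), and lowest on chromosomes 22 (0.0197), 14 (0.0338) and 9 (0.138). On chromosome 10 the near-gap peaks numbered 42 in mock, 86 with Ara-C and 62 with DNR, with ratios of 3.15, 3.29 and 3.99. On chromosome 4 they numbered 34, 67 and 54, with ratios of 2.67, 2.19 and 5.99. On chromosome 21 they numbered 53, 84 and 91, with ratios of 2.18, 1.65 and 5.77. On these 3 chromosomes each list was denser beside the gap than in the flank, and DNR had the highest ratio on each.

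On chromosome 22 no near-gap peak was called in mock or Ara-C and 2 under DNR, although its flank held 133, 209 and 123. Chromosome 14 had 2, 1 and 1 near-gap peaks beside 174, 218 and 81 in the flank, and chromosome 9 had 2, 0 and 0 beside 15, 23 and 21. The near-gap sequence of chromosomes 22, 14 and 9 amounted to 0.85, 1 and 1.65 Mb, so the low ratios rest on few near-gap peaks. A 0 allows up to 3 peaks as a one-sided limit for counting error.

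The DNR ratio was above the mock ratio on 18 of the 22 chromosomes, and the Ara-C ratio on 12. DNR had more near-gap peaks than mock on 13 chromosomes and fewer on 9, whereas in the flank it had fewer on 19. Ara-C had more near-gap peaks than mock on 18 chromosomes and more flank peaks on all 22. Intervals of the ratio lay above 1 on 3 chromosomes in mock, 3 with Ara-C and 5 with DNR, and below 1 on 10, 9 and 8. Besides chromosomes 4, 10 and 21, the DNR ratio was high on chromosome 2 (2.85, with mock at 1.06) and chromosome 16 (2.81, with mock at 0.73).

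**Figure D2:**
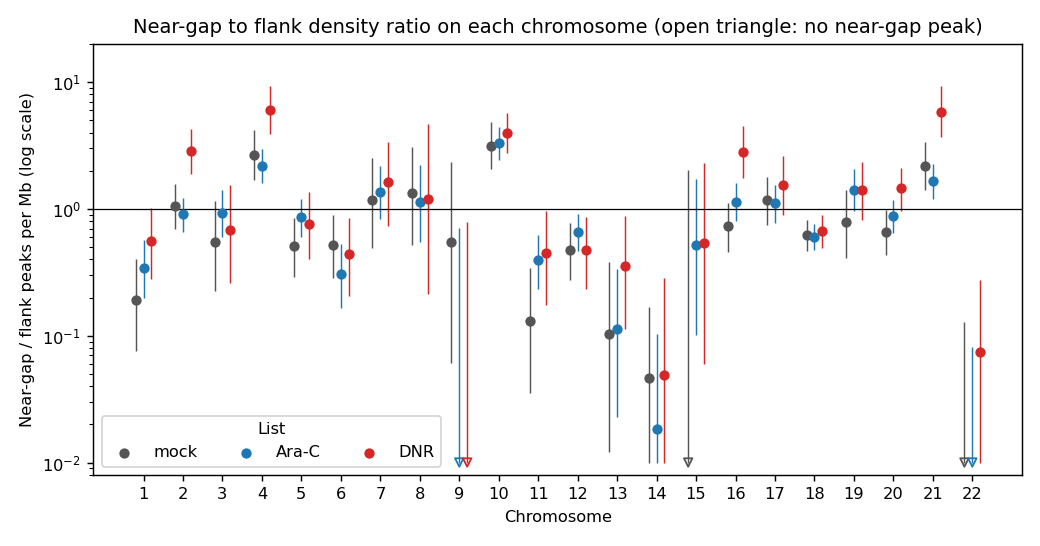
Near-gap to flank ratio of peaks per sequenced Mb (log scale) on chromosomes 1 to 22 for each list, with exact conditional intervals cut at the bottom of the axis. Open triangles mark lists with no near-gap peak. DNR stands at 5.99 on chromosome 4 and 5.77 on chromosome 21, above both other lists.

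Within the zone the peaks were clustered. Counted in segments of 100 kb from the gap edge, 255 of 421 segments held a peak of any list. The 12 segments with most peaks held 30.6% of the near-gap mock peaks, 28.5% with Ara-C and 46.3% with DNR. The densest was chr10:42354936-42454935, the first 100 kb after the gap, with 24 mock, 40 Ara-C and 41 DNR peaks. It was followed by chr4:49060118-49160117, which lay 0.5 to 0.6 Mb from the gap and held 13, 25 and 32. The next were chr21:10688130-10788129 with 13, 32 and 24 peaks and chr21:10788130-10888129 with 15, 17 and 26. Both drug lists were above mock in these 4 segments, and DNR had the most peaks in each but chr21:10688130-10788129.

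Peaks often stood on 1 side of a gap. On chromosome 18 there were 2 mock peaks before the gap and 61 after it, with 4 and 79 under Ara-C and 2 and 53 under DNR. On chromosome 21, which has 2 gaps, 49 mock, 73 Ara-C and 78 DNR peaks stood before their nearest gap. Those after their nearest gap numbered 4, 11 and 13. These counts pool the 2 gaps, so they do not compare the sides of 1 gap. On chromosome 4 the side before the gap held 25, 53 and 46 peaks and the side after it 9, 14 and 8. On chromosome 10 the order was the reverse of chromosome 4, with 12, 25 and 10 peaks before the gap and 30, 61 and 52 after it. Each list had the same fuller side on chromosomes 4, 10 and 18. This did not hold on every chromosome. On chromosome 1 there were 3 mock peaks before the gap and 4 after it, 11 and 6 under Ara-C and 7 and 5 under DNR. Chromosome 3 had 3 and 5, 15 and 14, and 4 and 3. Chromosome 2, with its 2 gaps pooled, had 12 and 21, 28 and 26, and 34 and 14.

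**Figure D3:**
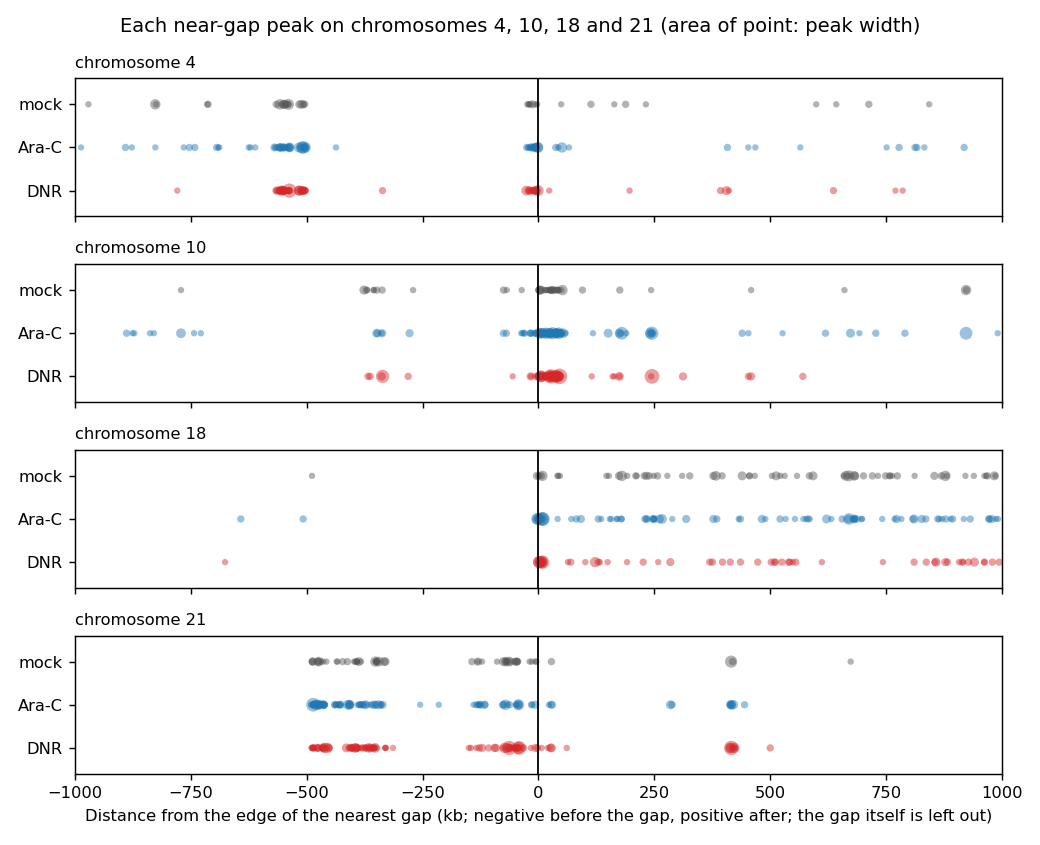
Every near-gap peak on chromosomes 4, 10, 18 and 21 by its distance from the edge of the nearest gap (kb, negative before and positive after the gap), with 1 row per list and point area in proportion to peak width. On chromosome 21 peaks lie beside 2 gaps and the distance is to the nearer one. Clusters recur at the same distances in the 3 rows, as at 0 to 100 kb after the chromosome 10 gap with 24, 40 and 41 peaks.

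Near-gap peaks were wider than flank peaks in the drug lists. Width is the only measure of strength that the lists carry. Peaks of 300 bp or more made up 11.6% of near-gap mock peaks (Wilson interval 8.84 to 15) and 10.2% of flank mock peaks. Under Ara-C the shares were 15.2% (12.9 to 17.9) and 8.66%, and under DNR 20.3% (17 to 24) and 3.42%. Mean width was 198, 216 and 240 bp beside the gaps in mock, Ara-C and DNR, and 196, 194 and 183 bp in the flank. In the first 10 kb from a gap such wide peaks made up 15.6%, 33.3% and 33.8% of the peaks. From 10 to 50 kb the shares were 2%, 20% and 33.3%, and from 50 to 100 kb 18.2%, 13.9% and 18.8%. From 0.1 to 0.25 Mb they were 6.25%, 10.8% and 15.3%, from 0.25 to 0.5 Mb 14.1%, 12.1% and 16.8%, and from 0.5 to 1 Mb 13.5%, 12.7% and 12.6%. Both drug lists stood above mock by the widest margin within 50 kb, and further out the order of the lists varied. Without the 50 kb next to each gap they were 12.6% in mock (9.47 to 16.6), 12.3% with Ara-C (9.92 to 15.2) and 14.8% with DNR (11.5 to 18.8), which counting error does not separate. The Ara-C and DNR shares were then still above those of their flank peaks.

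DNR peaks of 500 bp or more fell in this small zone more often than mock peaks of that width did. Of the autosomal peaks of 500 bp or more, 3 of 493 were near-gap in mock (0.609%), 20 of 674 under Ara-C (2.97%) and 30 of 286 under DNR (10.5%), where the zone holds 1.45% of the bases. The widest near-gap Ara-C peak was chr6:58776551-58779300, 2750 bp long with its midpoint 2.24 kb from the gap. DNR peaks covered 2150 bp of it and mock peaks 0. The widest near-gap DNR peak, chr6:58777401-58779050 with 1650 bp, lay within it. The next Ara-C peak was chr1:121484001-121485450, 1450 bp, with 950 bp covered under DNR and 0 in mock. Its midpoint lay 0.709 kb from the gap, and its last bases ran into the gap, which starts at 121485435. The second DNR peak was chr10:42399951-42400850, 900 bp, with 300 bp covered under Ara-C and 0 in mock. All of these were intergenic.

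The widest near-gap mock peaks were of another kind. The first was chr20:30311451-30312050, 600 bp, on an exon of BCL2L1, which encodes the apoptosis inhibitor BCL-XL. Ara-C peaks covered 350 bp of it and DNR peaks 0. The second was the chromosome 21 region with ribosomal RNA sequence, at 550 bp. The third was chr2:91816301-91816800, 500 bp, in the annotated non-coding gene LSP1P5, with no bases covered in either drug list.

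At 1 shared bp, near-gap peaks recurred between the DNR list and the others more often than flank peaks did. Of the near-gap mock peaks, 14.2% shared at least 1 bp with a DNR peak, against 2.99% in the flank and 3.39% of all autosomal mock peaks. Of the near-gap Ara-C peaks 14.6% were found in the DNR list, against 2.39% in the flank and 2.54% over all autosomes. Of the near-gap DNR peaks 11.8% were found in the mock list and 22.8% in the Ara-C list, against 4.48% and 5.54% in the flank and 4.49% and 5.5% over all autosomes. With 50% of the peak to be covered, 4.72% of near-gap DNR peaks (3.2 to 6.93) and 3.67% of flank DNR peaks (2.86 to 4.71) were found in the mock list, which counting error does not separate. Without the 50 kb next to each gap, 7.81% of mock and 8.32% of Ara-C peaks were found in the DNR list at 1 shared bp. Of DNR peaks, 7.52% and 13.9% were then found in the mock and Ara-C lists. These shares were all still above the flank shares. With 50% of the peak to be covered as well, 3.06% of these DNR peaks (1.72 to 5.4) were found in the mock list. That was below the 3.67% of the flank but within counting error. Near-gap peaks were clustered, so peaks of 2 lists could meet there more readily, and the part of this was not tested. Between mock and Ara-C the zones differed little at 1 shared bp. There 18.8% of near-gap mock peaks were found in the Ara-C list, beside 17.4% in the flank and 16.1% over all autosomes, and 9.9% of near-gap Ara-C peaks in the mock list, beside 11.2% and 9.84%. Under other overlap rules the zones separated in some comparisons, in opposite directions, and not in others. When a peak within 500 bp counted, 34.5% of near-gap mock peaks (30 to 39.2) and 25.1% of flank mock peaks (23.5 to 26.9) were found in the Ara-C list. With 50% of the peak to be covered, 5.99% of near-gap Ara-C peaks (4.52 to 7.9) and 9.42% of flank Ara-C peaks (8.52 to 10.4) were found in the mock list. By the same rule 13% of near-gap mock peaks (10.1 to 16.6) and 14.4% of flank mock peaks (13.1 to 15.9) were found in the Ara-C list. Within 500 bp, 19.9% of near-gap Ara-C peaks (17.2 to 22.9) and 16.4% of flank Ara-C peaks (15.3 to 17.7) were found in the mock list. The intervals of these last 2 comparisons overlap.

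Wider peaks were found again more often in each pair of lists, and with the DNR list as 1 of the pair the zones differed within most width classes too. Of mock peaks of 150 bp, the shortest a peak could be on the authors' grid, 11.2% (7.56 to 16.2) were found in the DNR list beside the gaps and 1.54% in the flank. Of Ara-C peaks of 300 bp or more, 37.6% (29.4 to 46.6) were found in the DNR list beside the gaps and 8.98% in the flank. The order was the opposite between mock and Ara-C for wide peaks. Of mock peaks of 300 bp or more, 45.8% (32.6 to 59.7) of near-gap and 64.1% (57.9 to 69.8) of flank peaks were found in the Ara-C list, and of wide Ara-C peaks 21.4% and 48.9% were found in mock. Wide DNR peaks were found in the mock list at 24.3% beside the gaps and 27.3% in the flank, a difference within the intervals.

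**Figure D4:**
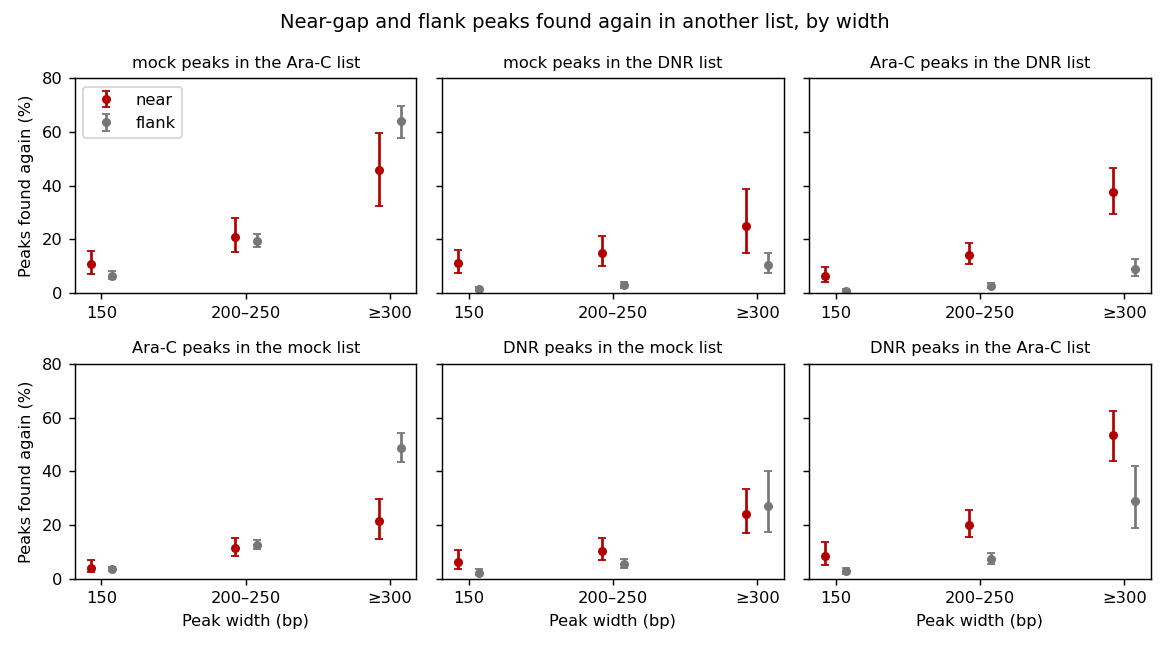
Share of peaks (%) of 1 list that share at least 1 bp with a peak of another list, by peak width (bp), for near-gap and flank peaks with Wilson intervals. With the DNR list as the other list, near-gap points lie above flank points in each width class, for example 37.6% and 8.98% for Ara-C peaks of 300 bp or more.

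Merged over the lists, the near-gap peaks formed 1454 regions. Of these 300 were found in mock only, 605 in Ara-C only and 362 in DNR only. A further 51 were shared by mock and Ara-C, 28 by mock and DNR, 74 by Ara-C and DNR, and 34 by all 3. The last class made up 2.34% of near-gap regions, 0.542% of flank regions and 0.577% of all regions. Regions with a base covered in every list made up 1.38% of near-gap regions (0.892 to 2.12), 0.542% of flank regions (0.397 to 0.74) and 0.47% of all regions, since all 39 such flank regions had a common base but only 20 of the 34 near-gap ones did. The 34 regions lay on 9 chromosomes, with 9 on chromosome 10, 7 on chromosome 4 and 4 each on chromosomes 2 and 21, and 23 lay within 100 kb of a gap. None overlapped an annotated gene. DNR peaks covered more bases than mock peaks in 23, fewer in 10 and as many in 1, and Ara-C peaks covered more in 19, fewer in 8 and as many in 7.

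The sequence around the peaks was richer in satellite repeats than the rest of the zone. The signs searched in the 1 kb window around each peak were at least 2 tandem GGAAT units on either strand, the CENP-B box core, and a self-match of at least 50% when shifted by about 1 monomer length of alpha satellite. Windows were free of N bases for 410 mock, 758 Ara-C and 499 DNR peaks. Tandem GGAAT was found at 22.4% of near-gap mock peaks (18.7 to 26.7), 20.3% with Ara-C (17.6 to 23.3) and 34.5% with DNR (30.4 to 38.7), against 1.81% of the near-gap grid windows. In the flank it was found at 0.374%, 0.536% and 0.187% of peaks. The CENP-B box core was found at 5.12%, 7.65% and 8.42% of near-gap peaks and 1.47% of grid windows.

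Self-match at monomer length was found at 27.3%, 29.2% and 38.1% of near-gap peaks and 10.2% of grid windows. A pentamer repeat also matches itself at some of these shifts, because they include multiples of its length, so this sign alone does not separate alpha satellite from GGAAT satellite. Peaks were therefore sorted, after these values had been seen, into those with tandem GGAAT, those with monomer-length repeat or CENP-B core but no tandem GGAAT, and the rest. The second class held 14.1% of near-gap mock peaks, 18.2% with Ara-C and 16.4% with DNR, against 9.58% of grid windows. Relative to the grid, GGAAT windows were over-represented 12.4, 11.2 and 19.1 times and the second class 1.48, 1.9 and 1.72 times. The peaks with none of the signs were under-represented, at 0.716, 0.694 and 0.554 times the grid.

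**Figure D5:**
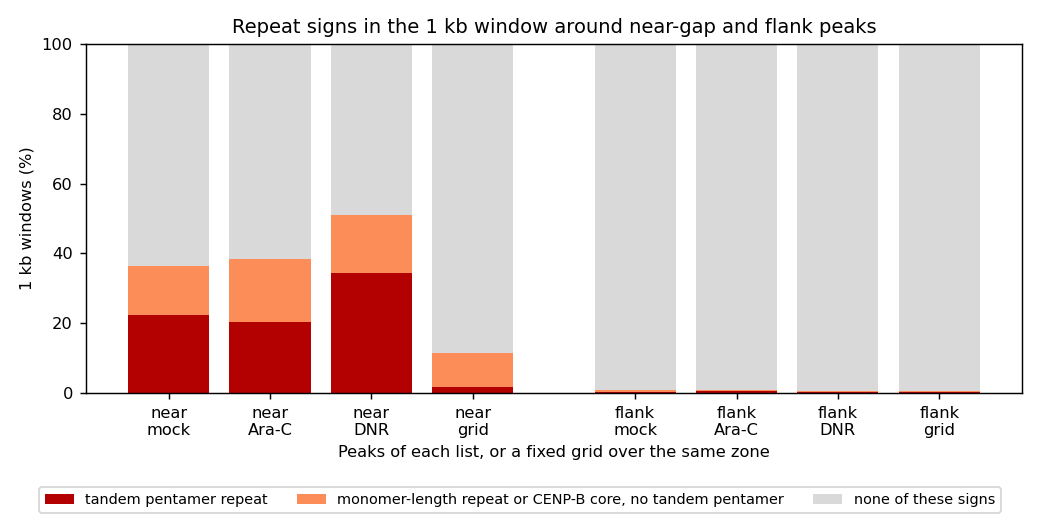
Share of 1 kb windows (%) with tandem pentamer repeats, with monomer-length repeats or a CENP-B core but no tandem pentamer, and with neither, for near-gap and flank peaks of each list and for a fixed grid over each zone. Tandem pentamers take 34.5% of near-gap DNR windows, 1.81% of the near-gap grid and under 1% of each flank bar.

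The DNR to mock ratio of peak numbers was highest for the GGAAT class and lowest for peaks with none of the signs. Near-gap peaks with tandem GGAAT numbered 92 in mock, 154 with Ara-C and 172 with DNR, a DNR to mock ratio of 1.87 (1.44 to 2.44). Those with monomer-length repeat or CENP-B core numbered 58, 138 and 82, a ratio of 1.41 (0.998 to 2.01). Those with none of the signs numbered 260, 466 and 245, a ratio of 0.942 (0.788 to 1.13). Flank peaks with none of the signs fell to 0.67 times mock under DNR. For Ara-C the ratios were 1.67 (1.28 to 2.19), 2.38 (1.74 to 3.29) and 1.79 (1.54 to 2.09), all above 1.

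GGAAT peaks came from few chromosomes. Chromosome 10 gave 31 of them in mock, 53 with Ara-C and 50 with DNR, chromosome 4 gave 20, 36 and 44, and chromosome 21 gave 16, 22 and 32. Of the peaks with monomer-length repeat or CENP-B core but no tandem GGAAT, chromosome 19 gave 9, 20 and 14 and chromosome 21 gave 7, 22 and 12. This class was not identified as alpha satellite, since diverged pentamer repeats without tandem units could also enter it. Peaks with none of the signs were most numerous on chromosome 18 in mock and Ara-C, with 59 and 70, where DNR had 42. Under DNR they were most numerous on chromosome 21, which held 29 in mock, 38 with Ara-C and 45 with DNR. Chromosome 20 had 24, 51 and 30 of them, and chromosome 10 had 8, 19 and 4, so DNR stood above mock on chromosomes 20 and 21 and below it on chromosomes 10 and 18.

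Wide peaks were concentrated in repeat windows in the drug lists but not in mock. Peaks of 300 bp or more made up 12% of mock peaks with any of the signs (7.73 to 18.2) and 11.5% of those with none (8.2 to 16). The shares were 23.3% and 9.66% with Ara-C, and 28.3% and 11% with DNR. By class, GGAAT peaks were this wide in 14.1% of cases in mock and 27.9% under DNR, and peaks with monomer-length repeat or CENP-B core in 8.62% and 29.3%. Recurrent peaks were concentrated in repeat windows in each list, with 41.3%, 34.6% and 41.7% of peaks with a sign found in either other list. Of near-gap mock GGAAT peaks 33.7% (24.9 to 43.8) were found in the DNR list, and of those without a sign 6.15% (3.82 to 9.76). Of DNR peaks with monomer-length repeat or CENP-B core 39% (29.2 to 49.8) were found in the Ara-C list and 11% in the mock list. The shares of peaks without a sign that were found in either other list were 19.6% in mock, 12.4% with Ara-C and 14.3% with DNR, where flank peaks gave 18.8%, 12.6% and 7.59%.

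Repeats limit how reads can be placed, and the authors kept uniquely placed reads. On a grid of 1 kb, 68.6% of near-gap 50-mers occurred once in the assembled chromosomes, 58.4% of those within 0.1 Mb of a gap and 85.1% of those in the flank. Within the peaks themselves, 93.1%, 91.9% and 89.8% of 50-mers occurred once in mock, Ara-C and DNR, and 86.3%, 83.5% and 83.6% in GGAAT peaks, against 99.5%, 99.4% and 99.2% in flank peaks. Reads from satellite copies that hg19 lacks could be placed on the copies it has. The part of this in the peak numbers was not tested, and a difference in depth, scaling or input subtraction between the libraries cannot be told apart from a difference between treatments. The same holds for the limit on piled-up reads, which the authors set higher in mock than in the drug libraries.

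The core motif of CTCF, an insulator protein bound across chromosome arms, was found at 2.2% of near-gap mock peaks, 1.19% with Ara-C and 0.802% with DNR, beside 0.155% of grid windows. The near-gap shares rest on 9, 9 and 4 peaks and their intervals overlap (1.16 to 4.12, 0.626 to 2.24 and 0.312 to 2.04), so they give no order. In the flank the shares were 3.74%, 2.41% and 1.49%.

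Promoter peaks were fewer under DNR than in mock, both beside the gaps and in the flank. A promoter was the 2 kb upstream of a protein-coding start site. Promoters held 4.58% of near-gap mock peaks (2.95 to 7.04), 3.26% with Ara-C (2.21 to 4.76) and 0.591% with DNR (0.201 to 1.72), where they cover 0.802% of the near-gap bases. In the flank they held 11.2%, 9.01% and 3.8% of peaks and covered 2.22% of the bases. Relative to the bases covered, mock promoter peaks were over-represented 5.71 times beside the gaps and 5.04 times in the flank, and DNR promoter peaks 0.737 and 1.71 times. The result depended on the genes counted, since the promoters of all annotated genes, non-coding ones and pseudogenes included, held 10.4%, 8.85% and 6.69% of near-gap peaks and cover 7.68% of the bases. Intergenic sequence held 62.4%, 68.6% and 77.4% of near-gap peaks and 62.3% of the bases.

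Of 128 protein-coding genes with a start site beside a gap, a promoter peak was called at 19 in mock-treated cells (14.8%), 24 with Ara-C (18.8%) and 3 with DNR (2.34%, 0.8 to 6.66). Of the 18884 coding genes of all autosomes the shares were 19.9%, 24.3% and 5.99%, and of the 1286 in the flank 20.4%, 24.1% and 5.21%. Fewer promoters were thus called under DNR than in mock in both zones, and the near-gap DNR share was within counting error of the others. MTRNR2L1, a nuclear gene derived from mitochondrial ribosomal RNA, had one in all 3 lists, of 200, 200 and 150 bp. It lies on chromosome 17 from 22022437 to 22023991. The other promoter peaks under DNR, both of 150 bp, were at ZNF514, a zinc finger gene with a mock peak of 150 bp, and at KCNJ12, a potassium channel gene with an Ara-C peak of 150 bp. No gene had a promoter peak under DNR alone.

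Promoter peaks in mock and Ara-C but not in DNR were found at 13 of these genes, 10.2%, beside 10.3% of flank genes and 10.2% of all coding genes, so this pattern was as frequent elsewhere. At BCL2L1 on chromosome 20, 0.891 Mb from the gap, promoter peaks covered 750 bp in mock, 350 bp with Ara-C and 0 with DNR. At ESCO1, an acetyltransferase of the cohesin complex, they covered 450, 500 and 0 bp, and at BMS1, a GTPase of ribosome assembly, 400, 600 and 0 bp. ESCO1 shared the chromosome 18 side of the gap with SNRPD1, a core protein of spliceosomal ribonucleoproteins (350, 450 and 0 bp), and ABHD3 (200, 250 and 0 bp).

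At OCIAD1 on chromosome 4 the widths were 400, 150 and 0 bp, while GGAAT peaks on the same chromosome numbered 20 in mock and 44 under DNR. ALG10B, a glucosyltransferase of protein glycosylation, had 300, 400 and 0 bp. MRPS5, a protein of the mitochondrial ribosome, had 250, 350 and 0 bp, POMK, a kinase of O-mannosyl glycans, 250, 200 and 0 bp, and HM13, the signal peptide peptidase, 200, 150 and 0 bp. In 6 of these 10 genes the Ara-C peaks covered more bases than the mock peaks, and in the other 4 fewer.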

How the data were processed

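SUMO-2/3 ChIP-seq of HL-60 cells was deposited by the authors as 3 peak lists, 1 each for mock, Ara-C and DNR. The deposited values are positions only (chromosome, start and end in hg19), with no height, p-value or read count. Single-end reads were aligned with CASAVA 1.8.2, as named in the submitters' processing notes. The authors kept uniquely placed reads, limited piled-up reads (at a higher limit in mock than in the drug libraries), extended and binned them, scaled the libraries, subtracted the input and called runs above 1 fixed signal value. A change in depth or scaling therefore moves the number of peaks. The 3 inputs were not analysed here, and depth per library is unknown.

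Gaps were read as N runs from GRCh37, the assembly underlying hg19. Start and end were treated as a 1-based region whose last base is the one before the listed end. Peaks were placed by midpoint, and densities are per sequenced base. Peaks were found again at 1 shared base, and merged regions chain such peaks over the lists, with their summed widths given. Shares carry Wilson intervals, peak numbers exact Poisson intervals, and ratios exact conditional binomial intervals. Intervals of a ratio of ratios use a normal approximation on the log scale. The 50-mers were counted on both strands over the 22 autosomes and both sex chromosomes. CTCF was searched by its core consensus on both strands. GENCODE 44 lifted to GRCh37 gave genes, which were taken as promoter, exon, intron, other gene and intergenic in that order. The reference has no soft-masking, so no share of masked bases is given. Named regions were the 3 widest near-gap peaks of each list and the 6 regions of largest summed width in all 3 lists. Named chromosomes had the 3 highest and 3 lowest ratios over the summed lists. Named genes had a promoter peak in all 3 lists, in mock and Ara-C only (at most 10, by mock width) or in DNR only, and other genes, chromosomes and segments were named after their values were seen. The members, lists and classes were chosen with earlier results of these data known. Distance, overlap, interval, 50-mer, self-match and CENP-B core steps were tested on simulated data, and the width, GGAAT and CTCF steps were not. Python 3.11.15, numpy 2.4.6, pandas 2.3.3, scipy 1.17.1 and numba 0.67.0 were used.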

Additional observations from a re-analysis of the deposited data

Results flagged for a closer look

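Chromosome X lay outside the selection, and the comparisons of the report do not use it. Within 1 Mb of its 1 gap there were 8 Ara-C peaks, above the 2 mock peaks, and 3 DNR peaks. Its flank held 47, 20 and 9 peaks under Ara-C, in mock and under DNR. The cause was not tested.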

How the results depend on the processing

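Of 131 alternative values for 20 results, 58 stayed within the interval of the reported value, 69 moved out of it and 4 fell on the other side of 1. Among those 4 was the Ara-C near-gap to flank ratio over bases whose 50-mer occurs once (1.01, 0.933 to 1.09). The DNR ratio fell below 1 without the 50 kb next to each gap (0.935, 0.832 to 1.05) and without chromosomes 4, 10 and 21 (0.834, 0.734 to 0.945). The DNR to mock change did so within 2 Mb (0.955, 0.873 to 1.05). Only the interval of 0.834 excluded 1. Leaving out chromosomes 4, 10 and 21, not counting tandem GGAAT windows as repeats and the repeat classes were chosen after seeing the data. Except where a setting removes peaks by its construction, the cause was not tested. No paired analysis was possible because there is 1 pooled library per condition and no result comes from a test. The share of soft-masked bases was not given, since the reference is not masked.

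Values are given in the order mock, Ara-C and DNR where all 3 moved. Over bases whose 50-mer occurs once the other ratios were 0.846 for mock and 1.55 for DNR. Within 0.5 Mb the ratios were 0.823, 0.944 and 1.62. Within 2 Mb they were 0.824 for mock and 0.889 for Ara-C. Without the 50 kb next to each gap they were 0.579 for mock and 0.675 for Ara-C. With peaks of at least 200 bp they were 0.97 for Ara-C and 1.81 for DNR, and the changes 2.16 for Ara-C and 1.59 for DNR. With gaps that have sequence on both sides the Ara-C ratio was 0.9, and without chromosome 21 the DNR ratio was 1.08. Without chromosomes 4, 10 and 21 the ratios were 0.519 for mock and 0.639 for Ara-C, and the DNR change was 1.05.

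Mock peaks found in the Ara-C list were 13% with 50% of the peak covered, 34.5% within 500 bp and 26.8% for peaks of at least 200 bp. Mock peaks found in the DNR list were 10.1% and 26.3% under these overlap rules, 8.21% within 2 Mb, 7.81% without the 50 kb and 9.79% without chromosomes 4, 10 and 21. Ara-C peaks found in the mock list were 5.99% and 19.9% under the overlap rules and 13.9% for peaks of at least 200 bp. Ara-C peaks found in the DNR list were 10.5% and 25.4%, 19.5% within 0.5 Mb, 8.61% within 2 Mb, 8.32% without the 50 kb, 20.4% for peaks of at least 200 bp and 9.79% without the 3 chromosomes. Among DNR peaks the shares found in the mock list were 4.72% and 26%, 8.7% within 2 Mb and 7.52% without the 50 kb. Among DNR peaks the shares found with Ara-C were 15.4% and 40.2%, 27.3% within 0.5 Mb, 15.5% within 2 Mb, 13.9% without the 50 kb, 30.4% for peaks of at least 200 bp and 18.3% without the 3 chromosomes.

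Peaks of at least 400 bp made up 3.86%, 4.82% and 11.4%. Wide peaks (300 bp or more) were 24% of DNR peaks within 0.5 Mb. Within 2 Mb they were 11.8%, 11.6% and 14%, without the 50 kb 12.6%, 12.3% and 14.8%, and without the 3 chromosomes 9.79%, 12.6% and 16.9%, so that the Ara-C share was not above mock under the first and second of these settings. The monomer-length self-match was found at 5.12%, 3.96% and 7.82% at an identity of 70%, at 12.2%, 15.2% and 13.2% outside tandem GGAAT, and at 17.7%, 18.8% and 24% without the 3 chromosomes. Promoters of all annotated genes held 10.4%, 8.85% and 6.69%.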
